A study of Mus musculus with 2 samples.

Results

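The genes described here are those whose most abundant transcript in a posterior mouse brain library was annotated as a retained-intron transcript, that is, an RNA of a gene that still holds sequence removed as an intron from another transcript of the same gene. They were chosen from the posterior transcript abundances: TPM (a level scaled to transcript length and to the library) was summed per gene, and a gene was kept when the sum was at least 10 TPM, at least 2 transcripts were annotated, at least 1 of them was protein coding, and the transcript with the highest TPM was of the retained-intron type. Prkcb, Ank2 and symbols starting with Rpl, Rps, Nduf, Srsf or Hnrnp were left out. This gave 199 genes, called members below, or 2.33% of the 8554 genes that passed every step but the last. The table held 54347 genes. In the other genes a protein-coding transcript led in 8079, a processed transcript without a coding frame in 149, and a transcript annotated as subject to nonsense-mediated decay in 126. In 1 more the leader was typed as a pseudogene transcript.

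Both libraries were made from polyadenylated RNA of wild-type C57BL/6J male mouse brain at 14 weeks of age, and no treatment or altered allele is given for either. The posterior library was matched in position to posterior brain slices imaged by MERFISH, a microscopy method that counts RNA molecules in tissue, and the anterior library to anterior slices. The posterior library held 147138183 estimated fragments, assigned to transcripts, and the anterior library 43558839 fragments, assigned to whole genes. There was 1 library per position, so no difference has a replicate check and no p-value is given. Position, library and quantification pipeline differ together and cannot be told apart, and the sources used here do not say whether 1 or more animals gave the tissue.

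Most introns are removed in the nucleus before an mRNA reaches the cytoplasm. A polyadenylated RNA that keeps an intron may stay in the nucleus until it is spliced or degraded, or may be exported and destroyed by nonsense-mediated decay when the intron brings a stop codon into the reading frame. In brain, retained introns are known for genes of the splicing machinery and for neuronal genes repressed by the splicing regulator Ptbp1. An annotated retained-intron transcript can also be a partial RNA that ends inside an intron, so a high level of one does not by itself show a stable RNA with a whole intron.

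Leading transcripts can differ from the coding RNA in more than a kept intron. In Mrps26-201 and Ncl-202, for example, the last exon ended short of that in coding Mrps26-202 and Ncl-201. Whole introns kept by leading transcripts are shown first, because a coding transcript of the gene removes them. Each is printed 5′ to 3′ on the gene's strand, with 10 exon bases on each side, from the GENCODE M21 transcript (build GRCm38, the assembly also called mm10). Capitals mark the GT that opens the intron, the AG that closes it and, where there is one, the first stop codon met when the coding frame is read on from the exon. Coordinates are those of the intron alone. These are short introns, from 68 to 190 bases, picked after their values were seen. They are not the shortest, since kept introns of members went down to 53 bases, and they do not stand for all kept introns.
Mrps26-201, chr2:130564228-130564307, plus strand: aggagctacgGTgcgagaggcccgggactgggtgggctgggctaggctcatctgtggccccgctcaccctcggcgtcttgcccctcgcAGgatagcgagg
Mrps24-201, chr11:5707556-5707623, minus strand: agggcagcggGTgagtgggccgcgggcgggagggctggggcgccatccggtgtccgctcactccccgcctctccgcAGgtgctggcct
Prelid1-202, chr13:55324445-55324526, plus strand: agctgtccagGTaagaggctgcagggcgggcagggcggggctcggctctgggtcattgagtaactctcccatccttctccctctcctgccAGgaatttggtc
Polg-203, chr7:79452029-79452106, minus strand: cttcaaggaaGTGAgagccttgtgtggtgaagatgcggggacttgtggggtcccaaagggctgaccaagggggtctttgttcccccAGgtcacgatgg
Med14-204, chrX:12706446-12706531, minus strand: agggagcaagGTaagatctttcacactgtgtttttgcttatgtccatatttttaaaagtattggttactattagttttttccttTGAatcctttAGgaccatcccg
Ncl-202, chr1:86352320-86352509, minus strand: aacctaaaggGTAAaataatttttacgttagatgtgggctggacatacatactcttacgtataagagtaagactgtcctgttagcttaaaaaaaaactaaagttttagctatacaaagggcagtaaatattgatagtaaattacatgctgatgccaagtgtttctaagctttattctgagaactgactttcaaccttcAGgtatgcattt

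The 80 bases kept in Mrps26-201, the 68 in Mrps24-201 and the 82 in Prelid1-202 held no stop codon in the frame read on from the exon. None of these lengths is a multiple of 3, so each intron would shift the frame of the exon after it. In Polg-203 and Ncl-202 the first stop codon began at intron base 2 and so overlapped the donor GT. In Med14-204 it began at base 75 of 86. The Mrps26 and Mrps24 introns were 72.5% and 77.9% G or C, and the Med14 intron 27.9%.

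For long introns only the 2 ends are shown, as 10 exon and 20 intron bases at the donor and 20 intron and 10 exon bases at the acceptor. Rsrp1-204 kept an intron of 1302 bases (chr4:134925433-134926734, plus strand) and Arglu1-204 one of 2280 bases (chr8:8681468-8683747, minus strand). Stk25-204 kept 816 bases (chr1:93626209-93627024, minus strand) and Cpsf4-203 kept 1455 bases (chr5:145177303-145178757, plus strand).
Rsrp1-204 donor: aaaggtggagGTaagtgccttcaggaagct
Rsrp1-204 acceptor: aaaattctcttcctctttAGcattcagaaa
Arglu1-204 donor: agccagagagGTaacgctcggtcgtttgga
Arglu1-204 acceptor: caacatgtcctcccctttAGgaggaagaga
Stk25-204 donor: gatatcaaagGTcctgcggggtgggcttgg
Stk25-204 acceptor: acctatcctgtattgagcAGctgccaacgt
Cpsf4-203 donor: tccaacaaagGTattgtaccctgctgcctc
Cpsf4-203 acceptor: tgttgtgtaactctttccAGcaaagtaaca

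Summed posterior TPM of the members ranged from 10.05 to 427, and its median was 27.8 TPM, against 32.1 TPM in genes led by a coding transcript. The highest was Ghitm, a protein of the mitochondrial inner membrane, with 427 TPM. Its leader Ghitm-203 had 191 TPM, close above the coding transcript Ghitm-201 with 186 TPM. Atp6v1d, a subunit of the proton pump that acidifies lysosomes and synaptic vesicles, had 186 TPM, of which 65.5% lay in Atp6v1d-202. Zmynd11, a chromatin reader of methylated histone, had 185 TPM, and Stk25, a serine/threonine kinase of the Golgi, had 163 TPM. Rsrp1, which encodes an arginine and serine rich protein, had 154 TPM, and its leader Rsrp1-204 held 72.1% of it. Luc7l2, a protein of the U1 snRNP that recognises donor sites, had 136 TPM with 21.9% in its leader.

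The next of the 12 most abundant members covered several parts of the cell. Atl1, the atlastin GTPase that shapes the endoplasmic reticulum of neurons, had 120 TPM. Abcc5, an efflux transporter of organic anions, had 116 TPM, and Srrt, a partner of the nuclear cap-binding complex, 102 TPM. Cit, the citron kinase of cytokinesis that is also found at neuronal synapses, had 99.0 TPM. Cdc37, the co-chaperone that brings kinases to Hsp90, had 98.9 TPM, and the membrane protein gene Tmem178b had 97.6 TPM. In these 12 genes the leader held from 19.8% of the gene's TPM in Srrt to 72.1% in Rsrp1.

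**Figure D1:**
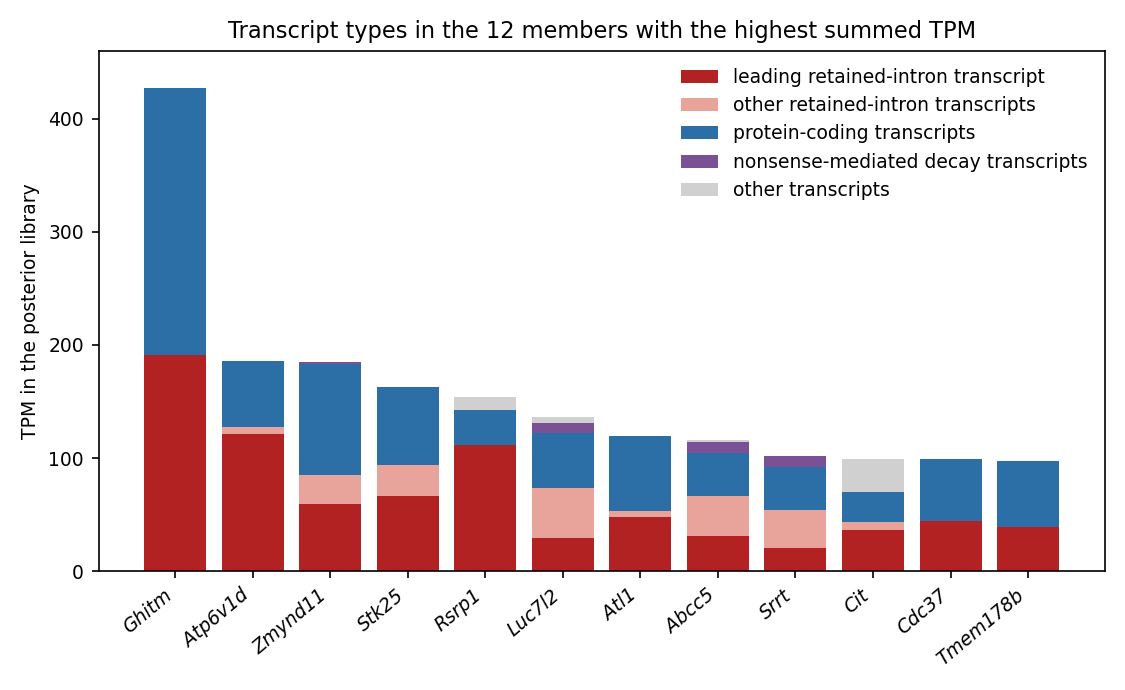
TPM in the posterior library (y axis) of the 12 members with the highest summed TPM (x axis), stacked by transcript type from 1 library with no error bars. Rsrp1 and Atp6v1d have most of their TPM in the leader, while in Luc7l2, Abcc5 and Srrt other retained-intron transcripts together exceed the leader.

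The leader held a median of 36.5% of a member's TPM, with a range of 11.8% in Arhgef40 to 99.97% in A2ml1, and at least 50% in 37 of the 199 members. It exceeded the next transcript by a median of 1.33-fold, so many leads were small. The next transcript was protein coding in 133 members and another retained-intron transcript in 55. All retained-intron transcripts of a member together held a median of 57.2% of its TPM, against 3.02% in genes led by a coding transcript. Of those 8079 genes, 5381 or 66.6% had an annotated retained-intron transcript. The others could only have a share of 0% and could not have been members. The median number of annotated retained-intron transcripts was 3 in members and 1 in genes led by a coding transcript. Protein-coding transcripts held 31.8% in members, against 90.9% in genes led by a coding transcript. These shares follow from the selection and are given as a description.

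Among the 10 members with the highest share in the leader, 3 encode proteins of the mitochondrial ribosome. Mrps26-201 held 89.7% of the TPM of Mrps26, with 41.5 TPM against 4.74 TPM for the coding transcript Mrps26-202. Mrpl57-202 held 83.5% of Mrpl57 and Mrps25-201 held 78.3% of Mrps25. A2ml1, a protease inhibitor of the alpha-macroglobulin family, had 680 fragments in the leader and 2.10 in its coding transcript. Carmil2, a regulator of actin capping, had 98.5% of its TPM and 97.4% of its fragments in retained-intron transcripts. Slc25a37, the mitochondrial iron importer mitoferrin, had 72.6% of its TPM in a leader of 5927 bases. Gstp2, a glutathione S-transferase, had 86.6% in its leader, but 60.3% of its 31-base words also occur in annotated transcripts of other genes, so its reads may have been shared with near-identical copies.

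The threshold of 10 TPM separated genes with nearly the same level. Just above it were Evc with 10.05 TPM, the cation channel gene Trpm4 with 10.07 TPM and 4930503L19Rik with 10.2 TPM. Just under it were Als2cl with 9.94 TPM, Arhgef6 with 9.74 TPM and Zfp57 with 9.69 TPM. The smallest leads were in Rrnad1, Dennd6b and Cep89, where the leader exceeded the next transcript by 1.003-fold, 1.004-fold and 1.004-fold. Becn1, an autophagy gene, fell outside because Becn1-211 had 19.23 TPM and the nonsense-mediated decay transcript Becn1-201 had 19.25 TPM. The retained-intron transcript of Cdan1 trailed a coding transcript by 1.004-fold.

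TPM divides fragments by effective length, the number of positions at which a fragment can start, so a short transcript needs few fragments for a high TPM. The leaders had a median length of 831 bases, against 3003 bases for leaders of genes led by a coding transcript. Their effective length had a median of 544 bases, against 2716. They held a median of 648 estimated fragments, against 5127. Within a member, the leader had a median of 0.401 of the length of the most abundant coding transcript, and it was the longer of the pair in 41 members.

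Ranked by fragments in place of TPM, the same transcript led in 50 of 199 members, or 25.1%, against 93.9% of genes led by a coding transcript. A protein-coding transcript led by fragments in 132 members, a retained-intron transcript in 64 and a nonsense-mediated decay transcript in 3. In Ghitm the leader Ghitm-203 had 5383 fragments, while the coding transcript Ghitm-201 had 38081. Zmynd11-225 was the extreme case, with 164 bases, an effective length of 6.72 bases and 36.1 fragments behind its 59.9 TPM. It was 1 of 18 leaders with fewer than 100 fragments. At the other end, Rsrp1-204 had 27540 fragments against 4108 for the coding transcript Rsrp1-201. Tmem178b-202 had 20894, against 7014 for coding Tmem178b-201 and 6070 for coding Tmem178b-204. Stk25-204 had 15089, against 4788 for coding Stk25-201 and 2795 for coding Stk25-203. Each of those 3 leaders was longer than 2500 bases and led by either measure. The estimation error of Salmon was not used here, so transcript levels carry no interval.

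**Figure D2:**
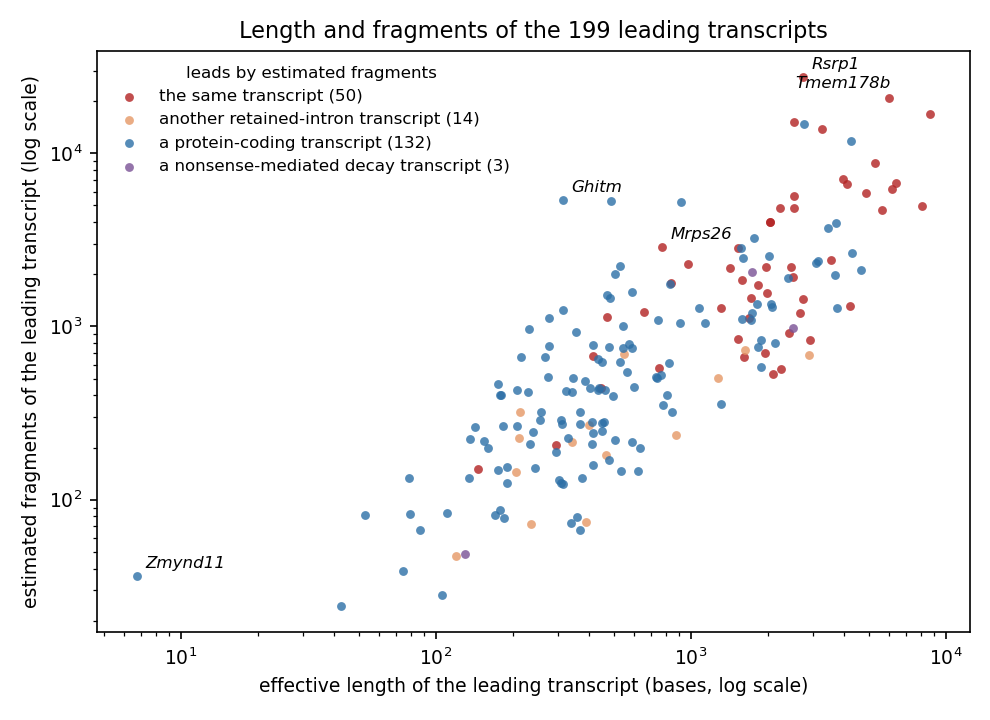
Estimated fragments (y axis, log scale) against effective length in bases (x axis, log scale) of the leading retained-intron transcript of each of the 199 members, coloured by what leads the gene by fragments. The 50 members in which the same transcript leads by fragments lie mostly at the long end, and Zmynd11 stands alone at an effective length of 6.72 bases.

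Counted in fragments, retained-intron transcripts held a median of 38.8% of a member, against 0.952% in genes led by a coding transcript. Here too, genes without an annotated retained-intron transcript count as 0%. They held over 50% of the fragments in 67 members, or 33.7%, and over 50% of the TPM in 132, or 66.3%. Coding transcripts held a median of 54.7% of a member's fragments, against 97.2% in genes led by a coding transcript. Over the whole posterior library, transcripts of the retained-intron type took 4.10% of the TPM and 2.89% of the fragments. The 199 members held 11.3% of that retained-intron TPM.

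**Figure D3:**
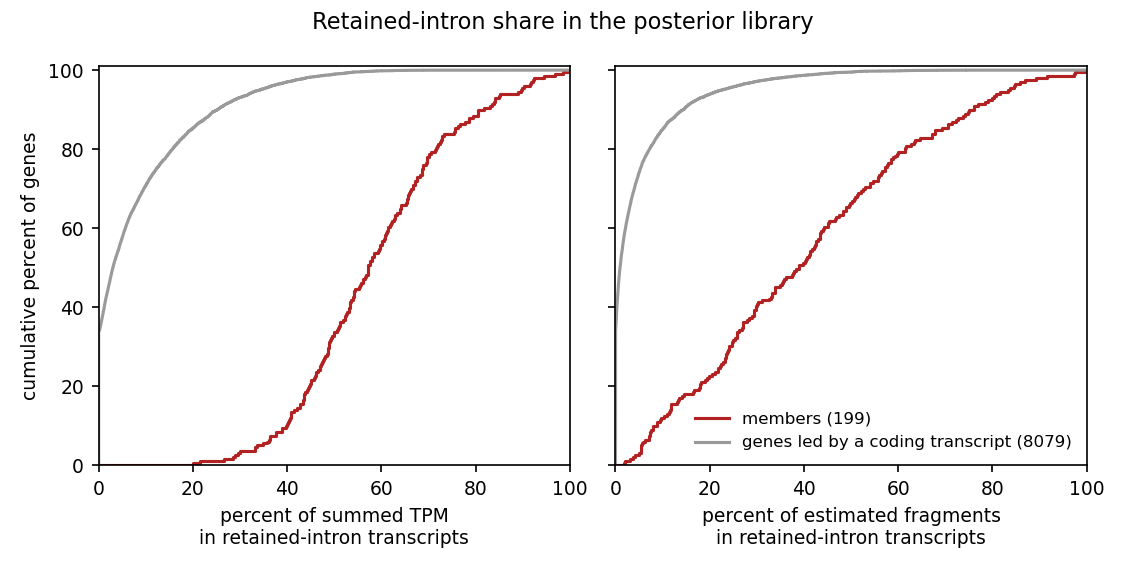
Cumulative percent of genes (y axis) by the share of their TPM (left panel, x axis in percent) or estimated fragments (right panel, x axis in percent) in retained-intron transcripts, for the 199 members and 8079 genes led by a coding transcript. The members' curve lies far to the right in both panels, with a median of 57.2% by TPM and 38.8% by fragments. Genes without an annotated retained-intron transcript are included at 0%.

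The exon structure of the leader was known for 188 members from GENCODE M21. The rule did not name exon structure, but it ranked TPM that was estimated from the transcript sequences. The structural contrasts below are therefore not independent of the selection and are given as a description. In 50 of them, or 26.6%, the leader contained at least 1 whole intron of a coding transcript of the gene. The most abundant retained-intron transcript of genes led by a coding transcript did so in 27.8% of 5120 genes. In 81 members, or 43.1%, the leader only crossed an acceptor, so that an exon began inside the intron and ran on into the coding exon, against 26.7% in genes led by a coding transcript. In 34 members, or 18.1%, it only crossed a donor, so that an exon ran on from the coding exon and ended in the intron, against 33.9%. Whether the transcript itself ended there was not counted. Another 8 members crossed both kinds of site without a whole intron, and 15 did neither.

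The leaders held little sequence of their own. A median of 129 bases, or 15.6% of the leader, lay outside all other transcripts of the gene. In genes led by a coding transcript, the most abundant retained-intron transcript had medians of 335 bases and 38.9%. A median of 199 bases, or 23.7% of the leader, lay outside the exons of coding transcripts, against 373 bases or 43.6% for the genes led by a coding transcript. In 25 members, or 13.3%, every base of the leader also lay in another transcript of the gene, against 4.32%. For these no exon base was particular to the leader. Ccnl2-205 and Clk4-207 were among them, each with 0 bases of its own, as were Mrps24-201 and Polg-203, whose kept introns also lie in other transcripts of their genes. Rsrp1-204 had 13 bases of its own in 3051, Mrps26-201 had 80, Stk25-204 had 816 and Cpsf4-203 had 1455.

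**Figure D4:**
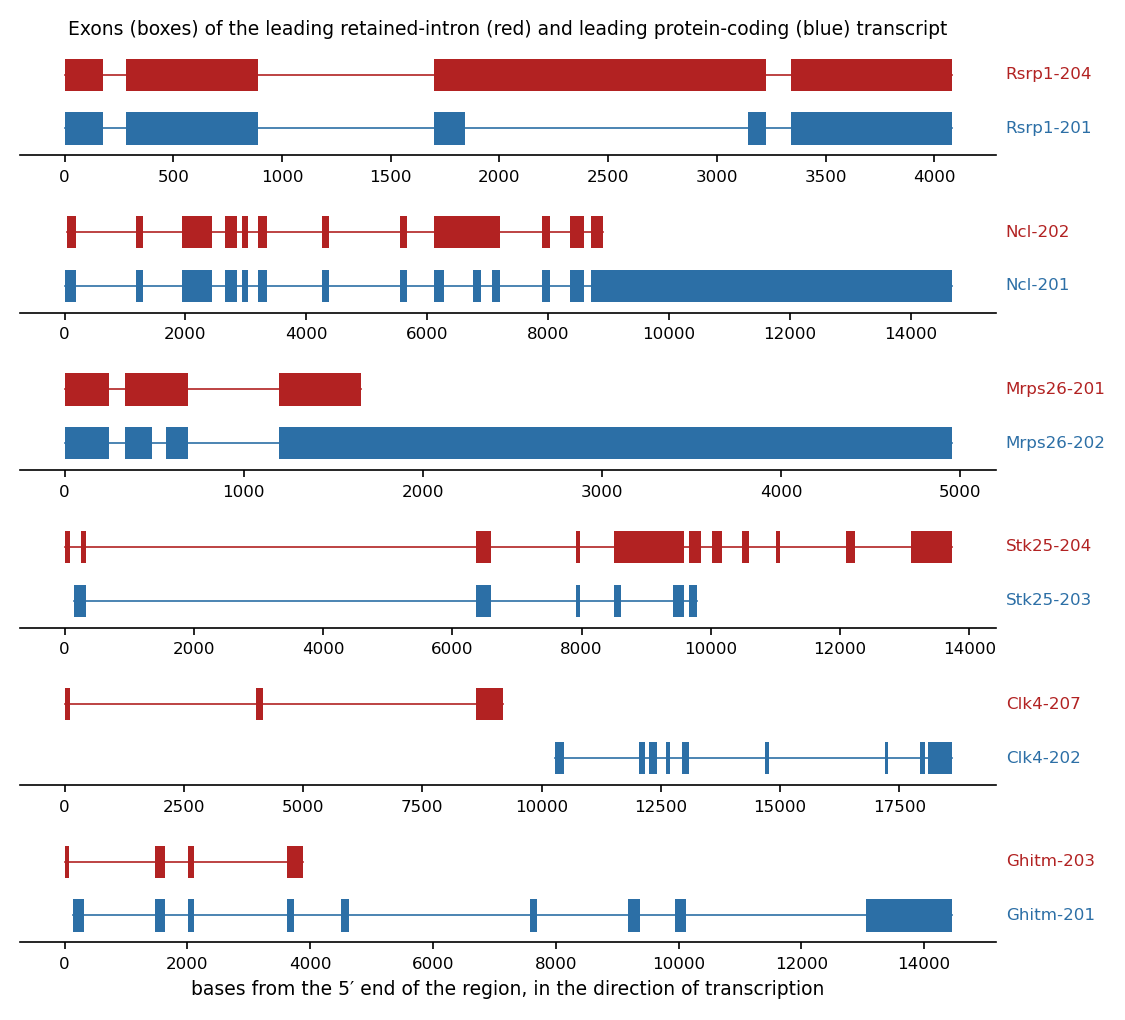
Exons (boxes) of the leading retained-intron transcript (red) and the leading coding transcript (blue) of Rsrp1, Ncl, Mrps26, Stk25, Clk4 and Ghitm, with distance in bases from the 5′ end on the x axis of each panel. In Rsrp1, Ncl, Mrps26 and Stk25 1 red exon spans blue exons and what lies between them, in Ghitm the red transcript ends inside an intron, and in Clk4 the pair shares no exon.

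The 50 members with a whole kept intron held 62 such introns, and 40 of them held exactly 1. The introns had a median length of 305.5 bases, against 290 bases in genes led by a coding transcript, and 20 were shorter than 150 bases. Their median G and C content was 54.6%, against 51.4%. All but 1 had GT and AG ends. Of the 58 introns between coding exons, 52 or 89.7% met an in-frame stop codon when read on, against 89.5% of 1707 introns, and 57 of the 58 met a stop or shifted the frame. The share with a stop was thus close to that of kept introns elsewhere. The intron was the last of the coding transcript in 1 of 59 cases with a known position, against 7.79%.

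Donor sites resembled those of other kept introns. The commonest bases at the donor in genes led by a coding transcript were CAGGTAAGT, with 3 exon and 6 intron bases, and the members' donors matched a median of 6 of 9 of them, the same as in those genes. The 20 bases before the last 3 of the intron were a median of 70% C or T in members, against 75%. In the sequences shown above, the Rsrp1 donor carries GTAAGT after the exon, while the Stk25 donor carries GTCCTG.

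A list of RNA-processing genes by symbol family held 7 members among the 185 that passed every step but the last, or 3.78%, against 2.33% of all 8554. The list was drawn up with earlier results of these data known, and the share is a description. It does not count every member with such a role: Srrt and Arglu1, for example, are not among the 7. Prpf31 and Prpf3, proteins of the U4/U6 snRNP, had 48.8% and 26.1% of their TPM in the leader. Ccnl2, a cyclin that partners splicing-linked kinases, had 72.7% of its TPM and 80.3% of its fragments in retained-intron transcripts. Thoc1, a subunit of the THO complex that couples transcription to mRNA export, had 89.0% of its TPM in 11 retained-intron transcripts. Cpsf4, a subunit of the complex that cuts the 3′ end of pre-mRNA, had 40.8% of its TPM and 57.6% of its fragments in the leader. Tia1, an RNA-binding regulator of splicing and stress granules, spread 66.8% of its TPM over 14 retained-intron transcripts, and its leader had 13.7%.

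The CLK kinases phosphorylate SR proteins, the splicing factors that define exons, and retained introns in their own transcripts are well known. Clk4 was the 1 member among 4 genes: Clk4-207 had 14.2 TPM, ahead of the coding transcript Clk4-202 with 12.1 TPM. Clk1 was led by a nonsense-mediated decay transcript, Clk1-210, with 20.5 TPM, and its retained-intron transcripts held 43.2% of its TPM. Clk3 and Clk2 were led by coding transcripts, with 34.1% and 31.1% in retained-intron transcripts. By fragments these shares were 49.0% in Clk4, 57.5% in Clk1, 46.9% in Clk3 and 37.4% in Clk2. All 4 genes thus stood above the median of 1.09% over the 8554 genes, some of which have no annotated retained-intron transcript.

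Ogt, which adds the sugar O-GlcNAc to proteins and whose transcripts are known to keep an intron, had 36.1% of its TPM in retained-intron transcripts and was led by coding Ogt-201. Oga, the enzyme that removes the sugar, had 11.7%. Vamp2, Sv2a and Kif5a, neuronal genes known for introns controlled by Ptbp1, were not members. Coding transcripts held 98.2% of the TPM of Vamp2, 96.0% of Sv2a and 100% of Kif5a. Kif5a has no annotated retained-intron transcript, so it could not have been a member and its value says nothing about its introns. Arglu1 and Ncl, named here for the sequences above, encode a splicing modulator and the nucleolar protein nucleolin. Arglu1-204 had 47.0 TPM and 13775 fragments, against 22.6 TPM and 5892 fragments for Arglu1-201. Ncl-202 had 59.3 TPM and 14797 fragments, against 29.1 TPM and 20652 fragments for Ncl-201, so Ncl changed its leader with the measure.

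A list of mitochondrial protein genes by symbol family, outside the Nduf family, held 7 members of 144, or 4.86%, against 2.33% of all 8554. The members on it were the ribosomal protein genes Mrps5, Mrps24, Mrps25, Mrps26 and Mrpl57 and the import genes Timm10b and Timm17a. It is not a full set of mitochondrial genes, and the members Ghitm and Slc25a37 are not counted in it. Mrps26-201 was the leader by fragments too, with 2864 against 1697 for Mrps26-202. Timm17a, a subunit of the inner membrane import channel, had 69.7% of its TPM in Timm17a-204 but 11.3% of its fragments in retained-intron transcripts. Mrpl57 had 31.2% and Mrps25 20.4% of fragments in retained-intron transcripts, against 83.5% and 84.0% of TPM. In Mrps25, 69.8% of exon bases overlap another gene.

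Ion channel genes held 4 members of 93, or 4.30%, against 2.33% of all 8554. Kcnt1, a sodium-activated potassium channel, had 60.6% of its TPM and 55.8% of its fragments in retained-intron transcripts. Kcnn3, a calcium-activated potassium channel, had 54.1% and 78.5%. Cacna1d, an L-type calcium channel, had 43.4% and 29.5%, and Trpm4 had 35.7% and 24.6%. Kcnt1-206 kept an intron of 1990 bases and led by fragments with 6750. Kcnn3-202 also led by fragments, with 4961, but it only crossed an acceptor and kept no whole intron.

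Genes of vesicle release held 3 members of 72 (Stx2, Stxbp2 and Sytl2), or 4.17%, against 2.33% of all 8554. The list of chromatin regulators held 3 of 107 (2.80%) and that of protein kinases 3 of 131 (2.29%). Both leave out members described above: Zmynd11 is not on the first, and Cit and Clk4 are not counted on the second. Small GTPases and their regulators held 3 of 180 (1.67%), and ubiquitin and proteasome genes 1 of 246 (0.407%). No member was found among 57 translation factors, 45 neurotransmitter receptors or 33 tubulins and microtubule-associated proteins. At a share of 2.33% lists of this size would hold few members, so their lack of members is not read as a depletion. These counts rest on symbol families and were not tested. A small nucleolar or micro RNA gene lay in the body of 11 members, or 5.53%, against 7.91% of genes led by a coding transcript. In 1 of them, Ankrd10, it lay in an exon of the leader.

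The anterior values are per gene and do not separate transcripts, so whether the same transcripts led in the anterior library was not measured. Whole-gene fragments were therefore compared, as fragments per 1000000 fragments in protein-coding genes, abbreviated FPM (the fragment share, which uses no gene length). The log2 difference took a pseudocount of 0.5 and was centred to a median of 0 over 13339 compared genes. A fold below is a ratio of the uncentred shares, with an exact 95% interval for counting error alone. The rule required 10 TPM in the posterior library, so a gene low there could not enter, and the balance of directions is not independent of the selection. In bulk tissue, fewer cells of a type and less RNA per cell cannot be told apart.

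All 199 members were found in the anterior library, and whole-gene levels were mostly close. The log2 difference, posterior over anterior, had a median of 0.01 in members (95% interval of the median over genes from -0.04 to 0.08), against -0.03 in genes led by a coding transcript. A log2 difference of at least 1, which is 2-fold toward the posterior library, was found in 13 members, or 6.53%, against 8.19% of all compared genes and 5.17% of the other genes that passed every step but the last. A log2 difference of -1 or less, which is 2-fold toward the anterior library, was found in 3 members, or 1.51%, against 1.84% and 0.527%. Both of the members' shares lay between these 2 backgrounds. Of the 12 most abundant members, 6 were higher and 6 lower in the posterior library. Ghitm had 392 posterior and 459 anterior FPM. Rsrp1 had 245 posterior and 294 anterior FPM, while Luc7l2 had 234 and 187 and Cit 269.8 and 166, in the same order.

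**Figure D5:**
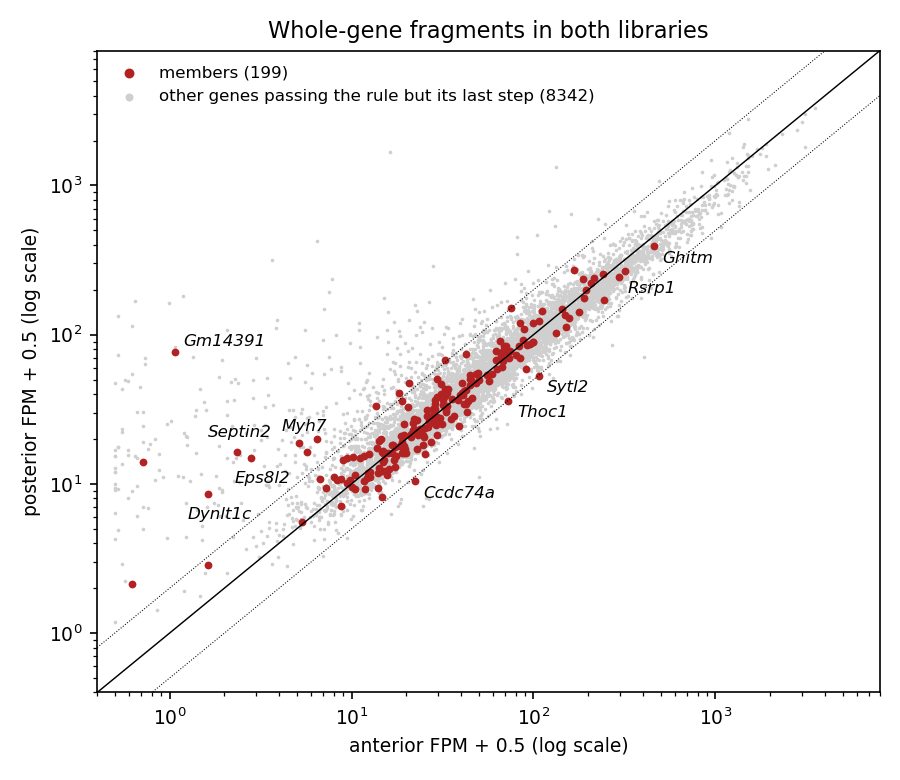
Posterior (y axis) against anterior (x axis) FPM plus 0.5, both on log scales, for 199 members and 8342 other genes that passed every step but the last. The solid line marks equal shares and the dotted lines 2-fold differences; 183 members lie between the dotted lines.

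The 5 members with the highest posterior difference among those with at least 10 anterior fragments were low in the anterior library. Gm14391, a predicted gene, had 75.7 posterior and 0.565 anterior FPM, from 10188 and 24 fragments, a 134-fold difference (90.0 to 209). Of its words, 36.0% occur in other genes. Septin2, a cytoskeletal GTP-binding protein, had 15.9 posterior and 1.84 anterior FPM, but 41.8% of its exon bases overlap another gene. Eps8l2, an actin regulator, had 14.4 posterior and 2.31 anterior FPM, with 32.2% of exon bases in another gene. Dynlt1c, a dynein light chain, had 8.02 and 1.13 in the same order, with 92.4% of its words in other genes. Myh7, a slow muscle and cardiac myosin heavy chain, had 18.3 posterior and 4.62 anterior FPM. The skeletal muscle markers Acta1 and Myh1 ran the other way, with 3.70 posterior and 8.20 anterior FPM for Acta1 and 0.483 and 1.20 for Myh1. In Myh7, 13.3% of exon bases and 27.9% of words are shared with other genes. The differences of these 5 genes are uncertain, since how each pipeline treated shared reads was not tested.

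In Kcnn3 and Hapln2 no exon base overlaps another gene and no word is shared. Kcnn3 had 47.0 posterior and 20.3 anterior FPM, a 2.31-fold difference (2.15 to 2.49). Hapln2, a matrix link protein at the nodes of myelinated axons, had 39.9 posterior and 17.8 anterior FPM, a 2.25-fold difference (2.08 to 2.43). Both were named after their values were seen.

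The 5 lowest differences were smaller in size. Ccdc74a, a coiled-coil protein gene, had 9.90 posterior and 21.7 anterior FPM, a fold of 0.456 (0.419 to 0.496). Sytl2, a Rab27 effector in vesicle traffic, had 52.6 posterior and 107 anterior FPM. Thoc1 had 35.7 posterior and 72.4 anterior FPM, a fold of 0.493 (0.471 to 0.516). These were the 3 members past 2-fold toward the anterior library. Gar1, a protein of the small nucleolar RNPs that guide pseudouridylation, had 7.68 posterior and 14.2 anterior FPM, and the cytoskeletal adaptor gene Obsl1 had 15.3 posterior and 24.7 anterior FPM.

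The scale mattered more for members than for other genes. On FPKM (fragments scaled to length and to the library), with posterior FPKM computed per transcript and summed, the median log2 difference of members was 0.87, against 0.05 in genes led by a coding transcript. On that scale 83 members, or 41.7%, passed 2-fold toward the posterior library, against 14.5% of all compared genes and 15.5% of the other genes that passed every step but the last. In the anterior direction there was 1 member, against 7.11% and 3.82%. Anterior FPKM divides by the union of all exons, with a median of 5752 bases in members. The posterior value divides by the effective length of each transcript, with a median of 544 bases for the leaders. When the posterior side counted coding transcripts only, the median fragment-share difference of members was -0.72, against -0.02 in genes led by a coding transcript. Then 6 members, or 3.02%, passed 2-fold toward the posterior library, against 8.17% of all compared genes and 5.39% of the other genes that passed every step but the last. Toward the anterior library 73 members, or 36.7%, passed 2-fold, against 4.8% and 2.78%. Here the anterior side still counts all fragments of the gene, so the 2 sides are not alike.

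Some cell type marker lists differed between the libraries in their sums and others hardly did. All 4 choroid plexus markers were higher in the posterior library, with a sum of 701 FPM, against 2.92 in the anterior library. All 4 oligodendrocyte markers were higher there too, and summed to 6136 posterior and 3217 anterior FPM. Of 5 neuronal markers only Gad1 was higher in the posterior library, and the sums were 4694 posterior and 7429 anterior. All 6 nuclear noncoding RNAs were higher in the posterior library, with sums of 9172 posterior and 3895 anterior. Astrocyte markers summed to 4326 posterior and 4360 anterior, but most of this was Slc1a2, with 3325 posterior and 3532 anterior FPM. The other astrocyte markers were higher in the posterior library: Aqp4 with 155 and 90.8, Gja1 with 184 and 135, and Aldoc with 663 and 603. Microglia markers summed to 162 and 176, and endothelial markers to 145 and 140, in the same order. Skeletal muscle markers summed to 4.22 posterior and 9.54 anterior, with all 3 lower in the posterior library. Liver markers summed to 0.431 posterior and 0.353 anterior, with Alb and Serpina1a at 0 fragments in the anterior. The part of these differences in the members' values was not tested.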

How the data were processed

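For the posterior library the authors deposited TPM and estimated counts per transcript, with lengths, made with Salmon against a GENCODE set per the labels' protocols. For the anterior library they deposited FPKM per gene, aligned with HISAT2 2.0.5 to mm10 per the submitters' processing notes. Neither the counting program nor its strand setting is given in the sources used here. Anterior fragments were recovered as FPKM times gene length over 27.4, which gave whole numbers within 0.001 for all 54532 genes. Intervals are exact Clopper-Pearson and cover counting error alone, because PCR copies of 1 molecule could not be recognised. The interval of a median is a binomial order-statistic interval over genes.

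Structures and sequences came from GENCODE M21, which matched 98.7% of 140992 transcripts. Introns of at least 30 bases were counted as whole when an exon spanned them. Words were 31 bases. Python 3.11.15, pandas 2.3.3, numpy 2.4.6 and scipy 1.17.1 were used, and the scripts were tested on simulated data.

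The members and lists were chosen with earlier results of these data known. Genes named were the 12 highest by TPM, the 10 highest by leader share, the 5 highest and 5 lowest differences with at least 10 anterior fragments, all members in the splicing-related lists, and those nearest the thresholds. Not every one of these is described, and other genes were named after their values were seen. Some genes that this rule or the lists hold are not reported here.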

Additional observations from a re-analysis of the deposited data

How the results depend on the processing

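Of 77 values under other settings, 55 stayed within 1.5 times the main count or within the interval of the main median, and 22 moved. Ranked by estimated fragments, 111 genes were led by a retained-intron transcript in place of 199, and 64 were shared, or 32.2% of the 199 and 57.7% of the 111. Their leaders held a median of 26.7% of TPM, all retained-intron transcripts 53.4%, the length ratio to the coding transcript was 1.36, and 8 had a posterior share of 2 or more times the anterior. With a lead of at least 1.5 times there were 76 members, with medians of 46.6% in the leader, 67.6% in all retained-intron transcripts, 25.2% in coding transcripts and a length ratio of 0.458. Leaving out transcripts under 500 bases gave a leader share of 40.0%. A minimum of 5 TPM gave 23 of 256 members (8.98%, other genes 5.90%) past 2-fold in the posterior and 6 (2.34%, other genes 0.535%) in the anterior direction. A minimum of 20 TPM gave 8 of 138 (5.80%, other genes 4.77%) in the posterior direction, with fewer members. On FPKM there were 83 in the posterior and 1 in the anterior direction, with a median log2 difference of 0.87. With coding transcripts alone these were 6, 73 and -0.72, where other genes had 5.39% and 2.78% past 2-fold and a median of -0.03. Over the 79 members that overlap no other gene, 6 passed 2-fold in the posterior direction and the median was -0.069. For these 6 of 79, and for the 8 of 111 above, no matched share over other genes is given. Neither count is therefore read as a difference from other genes. Beyond what the construction of each setting shows, the cause was not tested. No paired analysis was possible because each position had 1 library. Salmon's error per transcript was not used, so how fragment depth limits each leader's TPM was not measured.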
